A study of Mus musculus with 2 samples.

Results

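Molecular chaperones were followed as a gene family in RNA from the left cerebral cortex of the mouse. The family was taken by symbol: the HSP90 genes, the HSP70 and HSP110 genes (Hspa, Hsph), the mitochondrial chaperonins (Hspd, Hspe), the small heat shock genes (Hspb), the DnaJ genes of classes A, B and C, the CCT genes with Tcp1, and Bag1 to Bag6, each with at least 1 protein-coding transcript. This gave 87 of 55536 annotated genes, chosen without use of their measured values. Cct6a carries a fitting symbol but only transcripts of other types in the annotation used, so it stood outside the family. Total RNA came from female B6CASTF1/J mice aged 2 months, first-generation hybrids of C57BL/6J and CAST/EiJ. There was 1 group with 2 replicates, 1 library from 300 ng of RNA each, and no treated or mutant group. The labels number 2 tissue samples but give both the same donor entry, so the spread between the replicates may be technical.

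Chaperones bind unfolded or partly folded proteins and keep them from aggregating while they fold, move or are degraded. HSP70 proteins bind and release clients in an ATP cycle that DnaJ proteins start by stimulating ATP hydrolysis. HSP110 and many BAG proteins advance this cycle by exchanging ADP for ATP. HSP90 acts later, on kinases and receptors that are nearly folded, while the CCT ring and the HSP60 chaperonin enclose their clients. Neurons, which do not divide and have distant synapses, use HSC70 and its DnaJ partners to strip clathrin from recycled vesicles and to keep synaptic proteins folded. Heat shock factors bind repeats of the unit GAA in promoters of the inducible genes.

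The libraries held 31196858 and 32292150 expected counts, and ratios between them were taken from counts scaled by TMM. Levels are given in TPM (transcript abundance corrected for length), so genes can be compared. The cortical label was met by its markers: 7 of 7 genes of cortical excitatory neurons were at 1 TPM or more in both libraries. They summed to 1955 and 1856 TPM. Of 4 germ cell genes, Prm1, Prm2 and Tnp1 had 0 counts. The other, Ddx4, had 37 and 58 counts (0.66 and 0.93 TPM) and was higher in replicate 2, at 1.54-fold (1.01 to 2.40). Several marker groups were unequal between the libraries: Ttr, a choroid plexus gene, stood at 6.12 and 34.3 TPM, 3 of 4 haemoglobin genes and 4 of 5 oligodendrocyte genes were higher in replicate 2, and Acta2 of smooth muscle and Col1a2 and Slc6a13 of meningeal fibroblasts were lower while their gene Dcn was higher. In bulk tissue, fewer cells of a type and less RNA per cell cannot be told apart.

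Most of the chaperone genes were present, and a few made up much of their RNA. Of the 87, 74 (85.1%) reached 1 TPM in both libraries, against 58.8% of 22015 nuclear protein-coding genes. 59 of them (67.8%) reached 10 TPM against 36.7%, and 12 (13.8%) reached 100 TPM against 3.95%. Together they summed to 5549 and 5205 TPM in replicates 1 and 2 (mean 5377 ± 243, SD, n = 2). As a share of the TPM of nuclear protein-coding genes this was 1.19% and 1.18%, so their sum differed between the libraries by nearly the same proportion as that of all such genes. Hspa8, Hsp90ab1 and Hsp90aa1 held 40.1% and 40.0% of the chaperone TPM, and they were the highest 3 members in that order in both libraries.

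**Figure D1:**
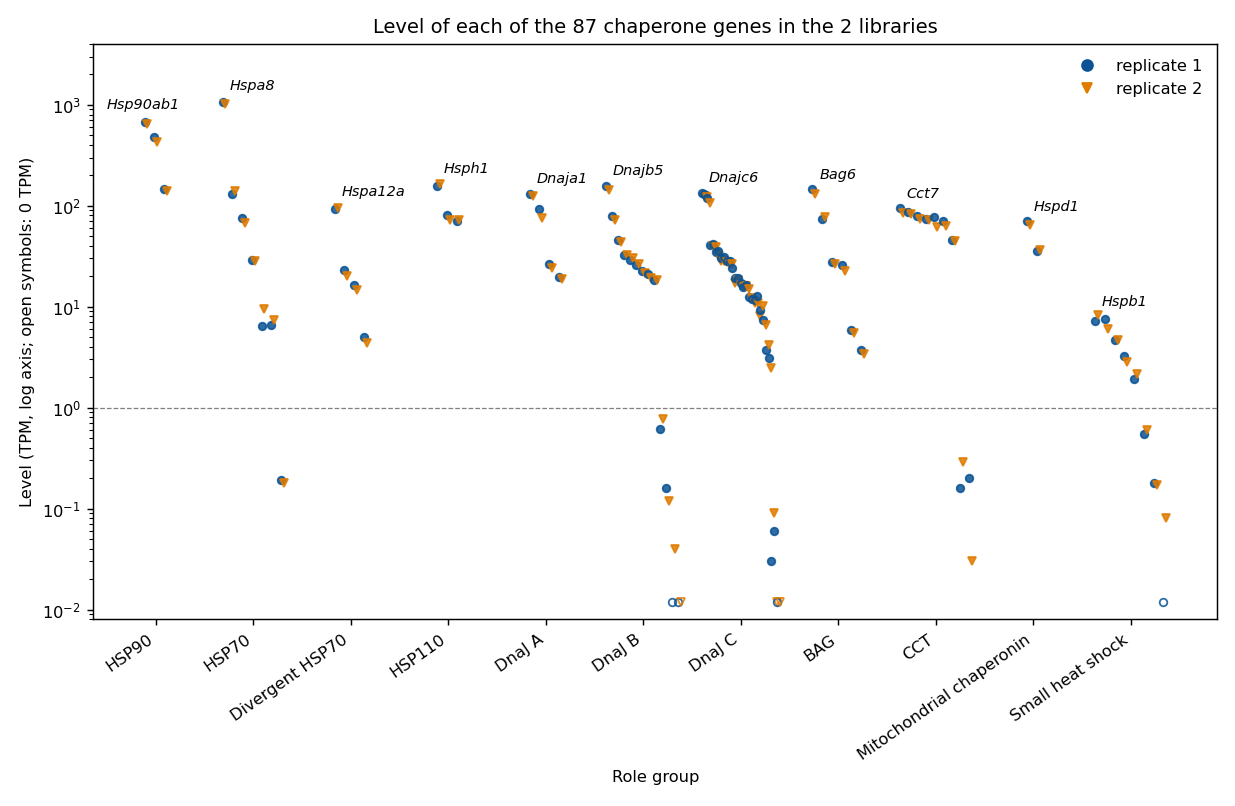
Level in TPM, on a log axis, of each of the 87 chaperone genes (horizontal axis: role group) in replicate 1 (circles) and replicate 2 (triangles), with the highest gene of each group named, open symbols for 0 TPM and a dashed line at 1 TPM. Hspa8 stands on top at 1067 and 1017 TPM, and genes below 1 TPM occur among HSP70, DnaJ B, DnaJ C, CCT and small heat shock genes.

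By family, HSP70 and HSP90 carried nearly equal amounts of RNA. HSP70 genes summed to 1315 and 1269 TPM and HSP90 genes to 1305 and 1203 TPM, a ratio of 1.01 and 1.05 that lay near equality in both libraries. In a separate deposited quantification made from the reads without alignments (called read-based here), this ratio was 0.747 and 0.772, so the order of the families depended on the quantification. The 3 DnaJ classes summed to 1540 and 1417 TPM, spread over 45 genes, which was 1.17 and 1.12 times the HSP70 sum. HSP110, the exchange factors related to HSP70, summed to 308 and 307 TPM, or 0.234 and 0.242 of the HSP70 sum (0.298 and 0.307 in the read-based tables).

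**Figure D2:**
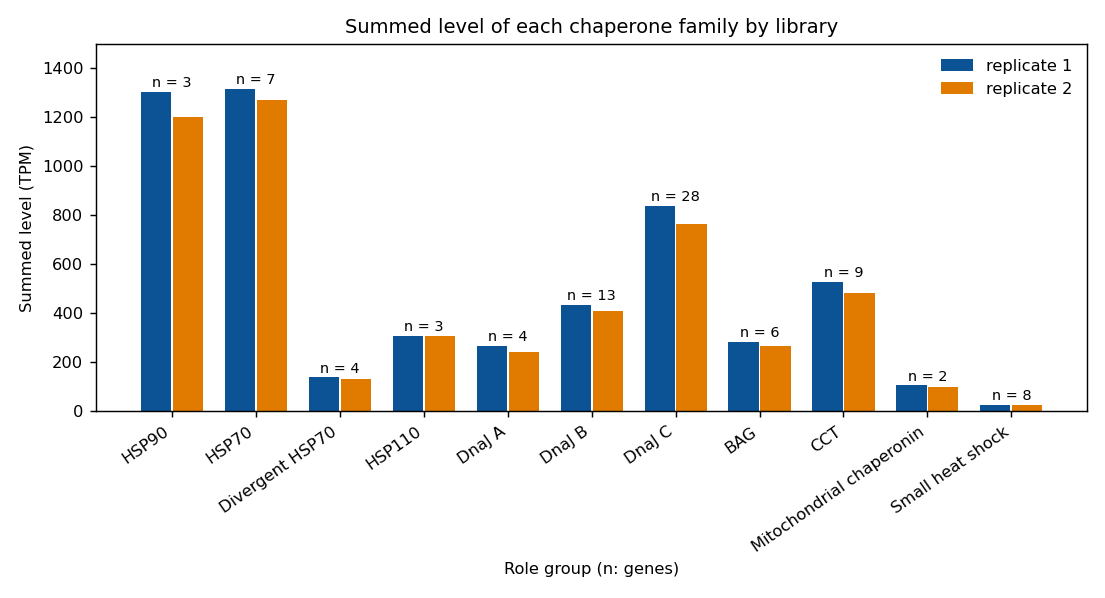
Summed level in TPM of the genes of each chaperone family (horizontal axis, n is the number of genes) in replicate 1 and replicate 2, bars starting at 0. HSP70 (1315 and 1269 TPM) and HSP90 (1305 and 1203 TPM) are highest, DnaJ C follows with 839 and 766 TPM, and the 8 small heat shock genes sum to 25.3 and 24.7 TPM.

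HSP90 was led by its constitutive cytosolic form. Hsp90ab1 (ENSMUSG00000023944.14, chr17:45567775-45573271, minus strand, mm10) stood at 682 and 638 TPM. Hsp90aa1, the more stress-responsive cytosolic form (ENSMUSG00000021270.13, chr12:110690605-110702728, minus strand), stood at 478 and 425 TPM. Hsp90b1, the form of the endoplasmic reticulum (ER) also known as GRP94, stood at 146 and 140 TPM. Hsp90ab1 was thus above Hsp90aa1 in both alignment-based libraries, by 1.43 and 1.503 times. The read-based tables put them at 1068 and 1014 TPM against 1085 and 1066 TPM, a ratio of 0.983 and 0.951, so which cytosolic form led was not settled by these files.

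Among the HSP70 genes the constitutive cytosolic Hspa8 dominated. Hspa8, which encodes HSC70 (ENSMUSG00000015656.17, chr9:40800984-40810087, plus strand), stood at 1067 and 1017 TPM and held 81.2% and 80.1% of the HSP70 sum. Hspa5, the ER chaperone BiP (ENSMUSG00000026864.13, chr2:34771970-34777547, plus strand), stood at 129 and 139 TPM. Hspa8 was 8.24 and 7.32 times as high as Hspa5. Hspa9, the mitochondrial HSP70 mortalin, stood at 75.9 and 67.9 TPM, and Hspa2, which is best known from the testis, at 29.2 and 28.4 TPM. The compartments kept this order in both libraries and both kinds of table: cytosol, then ER, then mitochondrion. Hspa1l, a germ cell member, was lowest at 0.19 and 0.18 TPM.

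The level of Hspa8 carries an uncertainty of its own. Its leading transcript shares 89.1% of its 31-base words with transcripts of other genes, above all with the processed pseudogene Gm15459 (ENSMUSG00000100801.1, chr5:5781615-5783555, minus strand), an intronless copy that alone shares 85.6%. Gm15459 was assigned 9395 and 10620 counts, or 250 and 263 TPM, which was 20.8% and 22.0% of the counts of both genes together. A second copy, Gm8355, was assigned 15.2 and 15.1 TPM, but 64.3 and 70.5 TPM in the read-based tables. Adding Gm15459 to Hspa8 gives 1317 and 1280 TPM. Reads of the gene and its copies cannot be told apart in these tables.

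The stress-inducible pair Hspa1a and Hspa1b was low but detected in both libraries. Hspa1a (ENSMUSG00000091971.3, chr17:34969190-34972156, minus strand) stood at 6.63 and 7.37 TPM and Hspa1b (ENSMUSG00000090877.3, chr17:34956436-34959238, minus strand) at 6.47 and 9.46 TPM. Their sum was 0.996% and 1.33% of the HSP70 sum, and Hspa8 was 81.5 and 60.4 times as high as the pair. The 2 genes lie 12918 bases apart from start to start, and Hspa1l starts 547 bases from Hspa1a on the opposite strand. Hspa1b shares 68.0% and Hspa1a 65.4% of their 31-base words with other genes, mostly with each other, so the split between them is uncertain and the sum is the safer value.

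The upstream regions of the pair are shown because they are nearly 1 sequence, with the same heat shock element at the same place. They are the 250 bases before the annotated start, from RefSeq (GRCm38.p6, the build of mm10), 5′ to 3′ on the minus strand. The capitals mark the element, a head-to-head pair of GAA units.
Hspa1a, chr17:34972157-34972406: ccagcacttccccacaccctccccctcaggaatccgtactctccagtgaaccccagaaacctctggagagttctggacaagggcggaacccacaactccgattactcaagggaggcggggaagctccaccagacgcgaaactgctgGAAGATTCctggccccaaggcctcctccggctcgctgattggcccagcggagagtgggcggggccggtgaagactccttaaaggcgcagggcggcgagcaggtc
Hspa1b, chr17:34959239-34959488: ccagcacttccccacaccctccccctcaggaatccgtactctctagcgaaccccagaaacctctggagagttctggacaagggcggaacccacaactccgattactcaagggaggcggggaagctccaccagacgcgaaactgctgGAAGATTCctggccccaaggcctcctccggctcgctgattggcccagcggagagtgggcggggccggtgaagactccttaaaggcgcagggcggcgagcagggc
They are identical at 247 of 250 positions (98.8%), and both elements begin 104 bases before the start. The leading transcripts of the pair are identical at 2598 of 2733 aligned bases (95.1%), with a further 304 positions in gaps.

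Heat shock elements were searched in the promoters of all members that RefSeq lists, 250 bases before to 50 bases after each start. The search took GAANNTTC or TTCNNGAA on either strand as 2 units, and GAANNTTCNNGAA or TTCNNGAANNTTC as 3 units. Of the 87 members 71 had an entry, while Bag4, Cct4, Dnajc2, Dnajc5, Dnajc5b, Dnajc11, Dnajc12, Dnajc18, Dnajc22, Dnajc30, Hsp90aa1, Hsp90ab1, Hspa8, Hspa9, Hspa13 and Hspb2 had none. The 2-unit element was found in 20 of 71 (28.2%), against 17.0% of 27025 genes. It occurred in Hspa1a and Hspa1b, in Hsph1, in Hspd1 and Hspe1, in Dnaja1, Dnaja4, Dnajb4, Dnajb6, Dnajc10, Dnajc27 and Dnajc5g, in Cct2, Cct5 and Cct8l1, in Bag3, and in Hspb1, Hspb3, Hspb6 and Hspb8. The stricter 3-unit element was found in 4 of 71 (5.63%), namely Dnajb6, Hspd1, Hspe1 and Hsph1, against 0.662% of genes. A match is a description of letters and not evidence of binding.

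The matched stretches below show how the longer elements are built in the mitochondrial chaperonin pair and Dnajb6, with shorter elements of 3 other members for comparison. Each reads 5′ to 3′ on the gene's strand (GRCm38.p6, RefSeq), capitals marking the match.
Hspd1, chr1:55088056-55088084, minus strand: gcggggccTTCCGGAAGGTTCtagaacgg
Hspe1, chr1:55088051-55088079, plus strand: acggtccgTTCTAGAACCTTCcggaaggc
Dnajb6, chr5:29735844-29735872, plus strand: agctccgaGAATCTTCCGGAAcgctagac
Dnajb4, chr3:152193844-152193867, minus strand: gttcgctgTTCTAGAAagtacaga
Dnaja1, chr4:40722336-40722359, plus strand: agcctctaGAAAATTCtacgaggc
Hspb1, chr5:135887814-135887837, plus strand: tgggggcaGAACCTTCctggcccc
The Hspd1 and Hspe1 stretches overlap on opposite strands: 1 run of units lies upstream of the RefSeq starts of both genes, and the matches begin 144 bases before that of Hspd1 and 89 bases before that of Hspe1. The annotation of the deposited tables begins some genes farther out, so the matches of Hspd1, Dnajb6, Dnajb4 and Dnaja1 lie inside those genes as annotated there. Members with the 2-unit element had a median level of 24.3 TPM and those without it 22.2 TPM. For the 3-unit element the medians were 71.5 TPM in the 4 members with it and 20.5 TPM in the others, and Hspa8, Hsp90ab1 and Hsp90aa1, the most abundant members, were not searched. Between the libraries, 3 of 18 measured members with the 2-unit element were higher in replicate 2 and 0 lower, against 6 and 6 of 45 without it. The 3 are Hsph1 and the near-identical Hspa1a and Hspa1b, whose reads cannot be split safely and which are not separate observations. Over all measured genes, 8.17% were higher and 6.89% lower.

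An ER stress response element, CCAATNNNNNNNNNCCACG on either strand, was searched after the values of the ER chaperones had been seen. It was found in 3 of 71 members, Hspa5, Hsp90b1 and Dnajc3, against 0.137% of genes. All 3 encode ER chaperones or their cochaperone, and the stretches are shown for that reason.
Hspa5, chr2:34772020-34772049, plus strand: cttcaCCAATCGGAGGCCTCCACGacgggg
Hsp90b1, chr10:86705632-86705661, minus strand: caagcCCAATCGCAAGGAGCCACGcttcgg
Dnajc3, chr14:118937822-118937851, plus strand: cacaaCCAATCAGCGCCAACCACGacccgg
They begin 65, 212 and 105 bases before the RefSeq start, that of Hspa5 inside the gene as the deposited tables annotate it, and Hsp90b1 holds a further copy on the other strand 107 bases before it.

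The divergent HSP70 genes were led by Hspa12a, an atypical brain-rich member, at 93.6 and 94.2 TPM. Hspa14, which pairs with Dnajc2 on the ribosome, stood at 23.3 and 20.2 TPM, and Hspa13, a microsomal member, at 16.3 and 14.5 TPM. Hspa12b, known from endothelium, was lowest at 4.96 and 4.34 TPM. In the HSP110 group Hsph1 stood at 156 and 163 TPM, Hspa4 at 81.5 and 72.9 TPM and Hspa4l at 70.4 and 71.4 TPM. All 3 exchange factors were thus abundant, and Hspa4 and Hspa4l differed by only 1.16 and 1.02 times.

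Class A of the DnaJ proteins, the closest relatives of bacterial DnaJ, was led by Dnaja1 at 130.2 and 124 TPM and Dnaja2 at 91.8 and 74.95 TPM. Dnaja3, the mitochondrial form, stood at 26.2 and 24.3 TPM and Dnaja4 lowest at 19.6 and 18.8 TPM. Class B was led by Dnajb5, which held 36.4% and 35.3% of its class at 158 and 144 TPM. Dnajb6, known for holding back polyglutamine aggregation, followed at 79.5 and 72.1 TPM, then the neuron-rich Dnajb2 at 45.8 and 43.6 TPM and Dnajb4 at 32.4 and 32.3 TPM. Dnajb1, the classical inducible HSP40, stood at 28.9 and 30.4 TPM, below these 4. The ER forms Dnajb11 and Dnajb9 stood at 26.1 and 26.2 TPM and at 18.5 and 18.4 TPM, and Dnajb12 and Dnajb14, which sit in the ER membrane, at 22.7 and 21.6 TPM and at 20.9 and 19.0 TPM. These 9 class B genes were the ones above 1 TPM.

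Class C, whose members share little beyond the J domain, was led by Dnajc6 and Dnajc5, genes of the synapse, with Dnajc7 next. Dnajc6, which encodes auxilin, the neuronal partner of HSC70 in clathrin uncoating, stood at 135 and 125 TPM. Dnajc5, the cysteine string protein of synaptic vesicles, stood at 131 and 123 TPM. Dnajc7, a cochaperone with TPR repeats that binds HSP70 and HSP90, stood at 118 and 106 TPM. These 3 of 28 genes held 45.8% and 46.2% of the class. Next by mean level was Dnajc8, a nuclear protein linked to splicing, at 40.9 and 39.7 TPM. Dnajc7 was 2.89 and 2.67 times as high as Dnajc8, but 1.64 and 2.08 times in the read-based tables. There Dnajc7 stood below Dnajc6 in replicate 1 (170 against 189 TPM) and above it in replicate 2 (197 against 175 TPM). The J proteins of mitochondria were lower: Dnajc15 stood at 35.9 and 28.5 TPM, Dnajc11 at 28.1 and 26.4 TPM, Dnajc19, part of the import motor, at 23.9 and 17.1 TPM and Dnajc30 at 19.3 and 16.5 TPM. Of the ER forms, Dnajc10, a disulfide reductase, stood at 30.7 and 28.3 TPM, Dnajc3 at 15.6 and 15.9 TPM and Dnajc1 at 11.7 and 10.9 TPM. Dnajc13, which acts on endosomes, stood at 34.6 and 31.4 TPM and Dnajc12, a partner of the aromatic amino acid hydroxylases, at 9.29 and 10.3 TPM. The other class C genes above 1 TPM lay between Dnajc27 (41.4 and 38.9 TPM) and Dnajc25 (3.08 and 2.49 TPM). At the low end, the cysteine string paralogs were near 0: Dnajc5b had 1 and 0 counts and Dnajc5g 0 counts in both.

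BAG genes, many of whose proteins bind the HSP70 ATPase domain, were led by Bag6 at 147 and 131 TPM, 51.7% and 49.2% of the group. Bag6 serves the quality control and targeting of membrane proteins. Bag1, which links HSP70 to the proteasome, stood at 74.2 and 77.5 TPM, Bag5 at 27.6 and 26.4 TPM, Bag4 at 25.7 and 22.3 TPM and Bag2, which inhibits the ubiquitin ligase CHIP, at 5.81 and 5.5 TPM. Bag3, the stress-inducible form that acts with Hspb8 in selective autophagy, was lowest at 3.72 and 3.41 TPM. Bag1 was 19.9 and 22.7 times as high as Bag3.

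Genes of the CCT ring, the cytosolic chaperonin that folds actin and tubulin, lay close together. Cct7 stood at 93.8 and 85.4 TPM, Tcp1 at 86.9 and 83.2 TPM, Cct5 at 78.7 and 73.9 TPM and Cct3 at 74.6 and 71.8 TPM. Cct8 (77.5 and 62.2 TPM) and Cct2 (70.6 and 62.5 TPM) followed, and Cct4 was lowest of the ring at 45.4 and 44.7 TPM. The highest of these 7 subunits was 2.07 and 1.91 times the lowest, while DnaJ B reached from 158 TPM to 0. Cct6a, the remaining ring subunit, stood at 72.5 and 63.3 TPM, inside the same range, although the annotation gives it no coding transcript. Its paralog Cct6b, known from the testis, had 7 and 1 counts and Cct8l1 had 6 and 12. The order within the ring depended on the quantification. In the read-based tables Tcp1 was highest at 166 and 155 TPM, and Cct2 (153 and 146 TPM) stood above Cct7 (145 and 128 TPM). Cct4 was lowest by mean there at 77.3 and 69.6 TPM, but above Cct3 (75.7 TPM) in replicate 1. In the mitochondrion, Hspd1, which encodes HSP60, stood at 69.8 and 64.4 TPM and its lid Hspe1 at 35.8 and 36.03 TPM. Their starts in the annotation of the deposited tables lie 111 bases apart on opposite strands of chromosome 1.

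Small heat shock genes, which encode ATP-independent holding chaperones, were the lowest family. Hspb1 stood at 7.16 and 8.22 TPM, Hspb11 at 7.60 and 5.94 TPM, Hspb8 at 4.70 and 4.72 TPM and Hspb3 at 3.23 and 2.81 TPM. Hspb11 is a subunit of intraflagellar transport rather than a typical member. The order of Hspb1 and Hspb11 differed between the libraries. Hspb6 stood at 1.92 and 2.15 TPM, and Hspb2, Hspb7 and Hspb9 stayed below 1 TPM. None of the 8 reached 10 TPM. The related alpha crystallin Cryab, outside the symbol rule, was higher than all of them at 54.6 and 50.6 TPM.

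Of the 87, 13 members stayed below 1 TPM, and the depth sets what their absence can mean. Dnajb8 and Dnajc5g had 0 counts in both libraries, which allows up to 0.203 and 0.189 TPM for Dnajb8 and 0.184 and 0.172 TPM for Dnajc5g (3 counts). Dnajb7 and Hspb9 had 0 and 1 counts, Dnajc5b 1 and 0, Dnajc22 1 and 3, and Dnajb13, a protein of cilia and flagella, 7 and 4. Hspb2 had 6 and 6 counts, Hspb7 10 and 10, Dnajb3 12 and 16 and Hspa1l 9.42 and 9.46. Several of these are best known from testis, heart or muscle. Such limits cover counting error only.

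The 2 libraries were close in their chaperone RNA. A count filter, a mean of at least 10, left 76 of the 87 members, and for each an exact 95% interval of the scaled ratio was computed that covers counting error only. The interval lay wholly beyond 2-fold for 0 of 76 members, against 0.307% of 18562 genes. It excluded equality for 19 of 76 members (25%), against 15.1% of all genes, with 10 higher in replicate 2 (8.17% of all genes) and 9 lower (6.89%). Members are abundant and therefore have narrow intervals: at a mean count of 1000 or more, 8 of 48 were higher against 16.2% of genes and 7 of 48 lower against 9.53%. Between 100 and 1000 counts, 2 of 23 were higher against 5.35% and 2 of 23 lower against 6.9%, so the shares were near the background. The median log2 ratio was -0.01 for the members and 0.00 for all genes, and 73 of 76 members (96.1%) lay within 1.25-fold of equality against 84.4% of genes. The intervals cover counting error alone. On simulated libraries with the spread of these and no change, they excluded equality at least as often as over all genes here, so "higher" and "lower" describe these 2 libraries only. No test between conditions exists in this design.

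**Figure D3:**
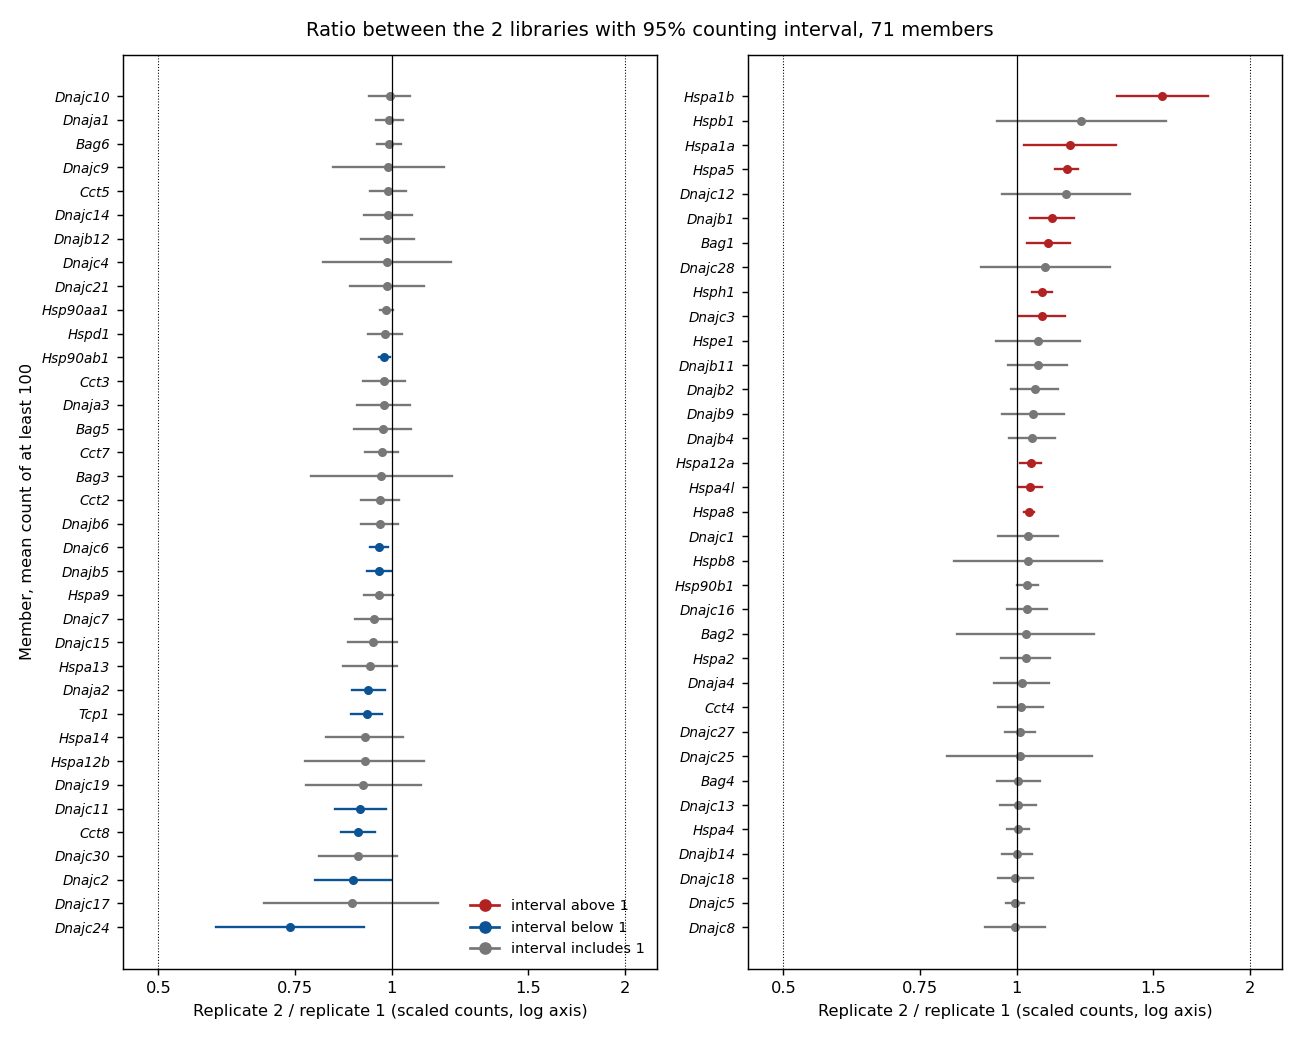
Ratio of scaled counts, replicate 2 over replicate 1, on a log axis for the 71 members that averaged 100 counts or more (vertical axis), with exact 95% counting intervals and dotted lines at 2-fold. Hspa1b, at 1.54, lies farthest above equality and Dnajc24, at 0.74, farthest below, and no interval lies wholly beyond 2-fold.

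Among members higher in replicate 2, the inducible pair stood farthest out. Hspa1b had 358 and 560 counts, a ratio of 1.54 (1.35 to 1.77), and Hspa1a 389 and 462 counts, a ratio of 1.17 (1.02 to 1.34). Summed, the pair had 747 and 1023 counts, 1.35-fold (1.23 to 1.49), so it was higher in replicate 2 however reads were split within it. Hspa5 had 6019 and 7082 counts, 1.16-fold (1.12 to 1.20). The inducible partners Dnajb1 at 1.11-fold (1.04 to 1.19) and Hsph1 at 1.08-fold (1.05 to 1.11) lay on the same side, as did Bag1 at 1.10-fold (1.03 to 1.17) and Dnajc3, an ER cochaperone, at 1.08-fold (1.01 to 1.15). Hspa12a, Hspa4l and Hspa8 were each 1.04-fold. Hspb1, at 1.21-fold (0.943 to 1.56), and Dnajc12, at 1.16-fold (0.957 to 1.40), had ratios above that of Dnajb1, but with fewer counts their intervals included equality. The intervals of Bag3, at 0.97-fold (0.787 to 1.19), and Hsp90aa1, at 0.984-fold (0.966 to 1.00), which are also inducible, included equality. Of 18 measured members with the 2-unit heat shock element, only Hspa1a, Hspa1b and Hsph1 were higher. The others had intervals that included equality, among them Dnaja1 at 0.993-fold, Hspd1 at 0.980-fold, Hspe1 at 1.06-fold, Dnajb4 at 1.045-fold and Hspb8 at 1.03-fold.

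Globin genes and myelin genes moved in the same direction. Hba-a1 was 1.38-fold higher in replicate 2, and the 4 haemoglobin genes summed to 344 and 436 TPM. The 5 oligodendrocyte genes summed to 629 and 679 TPM, and Ttr was 5.89-fold higher. Their part in the ratios of Hspa1a, Hspa1b and Hspa5 was not tested. The endothelial genes Cldn5, Flt1 and Pecam1 summed to 40.0 and 39.1 TPM, and 0 of 3 had an interval excluding equality.

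Of the 9 members lower in replicate 2, 8 were DnaJ or CCT genes, which are 46 of the 76 members measured. Taken apart, 1 of 4 measured DnaJ A, 1 of 10 DnaJ B, 4 of 25 DnaJ C and 2 of 7 CCT genes were lower. Over all genes 6.89% were lower, or 9.53% of those with 1000 counts or more. Dnajc24, which serves the diphthamide modification of elongation factor 2, had the largest difference with 196 and 147 counts, 0.74-fold (0.593 to 0.920). In the read-based tables its interval was 0.661 to 1.01 and included equality. Dnajc2, the ribosome-associated J protein, stood at 0.892-fold, Cct8 at 0.905-fold (0.859 to 0.952), Dnajc11 at 0.911-fold, Tcp1 at 0.928-fold and Dnaja2 at 0.932-fold. Dnajb5, Dnajc6 and Hsp90ab1 were at 0.963, 0.964 and 0.978-fold. The ratios of Dnajc17 (0.887-fold, 0.685 to 1.15) and Dnajc30 (0.904-fold, 0.805 to 1.01) were below that of Dnajc11, but their intervals included equality. So did those of Hspb11 (0.822-fold, 0.589 to 1.14) and Hspb6 (0.909-fold, 0.598 to 1.38), which averaged under 100 counts. Of the 7 ring subunits of CCT 6 had ratios below 1, but only Cct8 and Tcp1 had intervals excluding equality. Scaled by the spike-ins, Dnajb5 and Dnajc2 no longer excluded it, at 0.967-fold (0.933 to 1.00) and 0.895-fold (0.799 to 1.00).

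Partners outside the symbol rule were measured in the same way. Of 8 ER folding genes 4 were higher in replicate 2 and 0 lower, against 8.17% and 6.89% of all genes, or 16.2% and 9.53% of those with 1000 counts or more. They were the lectin chaperone Calr (195 and 196 TPM, 1.06-fold), the disulfide isomerases Pdia4 (21.6 and 23.4 TPM, 1.14-fold) and Pdia6 (57.0 and 61.7 TPM, 1.16-fold), and Sdf2l1 (9.02 and 10.8 TPM, 1.26-fold, 1.04 to 1.54). Canx, at 182 and 166 TPM, had an interval of 0.952 to 1.00 that included equality. After Calr and Canx, Pdia3 was the highest of the ER folding genes at 79.9 and 72.8 TPM, and Sdf2l1 was the lowest. Among members of the family that work in the ER, Hspa5 and Dnajc3 were higher, Hsp90b1 was at 1.03-fold, Dnajb9 at 1.05-fold and Dnajb11 at 1.06-fold with intervals reaching equality. The intervals of the remaining ER members described above also included equality, with Dnajc1 at 1.03-fold, Dnajb14 at 1.00-fold, Dnajc10 at 0.993-fold, Dnajb12 at 0.986-fold and Hspa13 at 0.937-fold (0.864 to 1.02). Hyou1, the HSP110 relative of the ER, was 1.06-fold (1.02 to 1.11).

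Across the other partner lists, genes were called in both directions. Over all genes 8.17% were higher and 6.89% lower, or 16.2% and 9.53% of those with 1000 counts or more. Of 12 HSP90 cochaperones 2 were higher, Stip1 (84.7 and 84.8 TPM) and Chordc1 (44.5 and 46.0 TPM, 1.14-fold), and 2 were lower, Ppid and Ppp5c. Stip1, which joins HSP70 to HSP90, led this list, followed by Ahsa1, an activator of the HSP90 ATPase, at 78.0 and 73.4 TPM and the phosphatase Ppp5c at 79.2 and 69.8 TPM, and Unc45a was lowest at 19.7 and 16.1 TPM. Of 12 HSP70 cochaperones outside the rule 2 were higher, Hyou1 of the ER and the cytosolic St13, and 2 lower, Sec63 of the ER membrane and Tomm70a of the mitochondrial outer membrane, with Sgta (74.8 and 74.1 TPM), St13 (74.1 and 71.7 TPM) and Sgtb (62.4 and 56.8 TPM) on top and the mitochondrial exchange factor Grpel2 lowest at 7.17 and 7.65 TPM. Prefoldin, which hands actin and tubulin to CCT, and its helpers had 1 of 9 higher, Pfdn2, and 1 lower, Pfdn1, and were led by Pfdn5 at 191 and 183 TPM and Pfdn2 at 72.7 and 81.7 TPM, then Pfdn6 at 46.4 and 41.8 TPM, with Pdcl lowest at 11.8 and 10.8 TPM. Of the heat shock factors Hsf1, the main activator of the inducible genes, stood at 34.9 and 30.1 TPM with a ratio of 0.92 (0.847 to 1.00, the upper bound just under equality), Hsf2 at 12.4 and 12.5 TPM, and Hsf3 had 2 counts in each library. Their partner Hsbp1 was the highest of that list at 148 and 137 TPM. Of the crystallins and mitochondrial proteins, 0 of 7 excluded equality. The mitochondrial HSP90 Trap1 stood at 34.7 and 31.9 TPM and the protease Lonp1 at 28.1 and 26.9 TPM, and Cryaa had 1 count in each library. No gene of these 6 lists had an interval wholly beyond 2-fold.

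Which transcript led a chaperone gene depended on the quantification for 18 of 74 members. These 74 had a mean of at least 1 TPM, and 68 of them have more than 1 annotated transcript. The leading transcript, that of highest mean TPM over the 2 libraries, was the same in both kinds of table for 56. Taken in each library alone, it was the same in both libraries for 70 in the alignment-based and 68 in the read-based tables. For 40 members it held most of the gene's TPM (over 50%) in both kinds and both libraries, among them Hsp90ab1-201 with 89.7% and 88.3% and Hsp90b1-201 with 93.1% and 94.3%. It was protein-coding for 69 and 71. Both kinds of table come from the same reads, so where they meet is no replication.

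**Figure D4:**
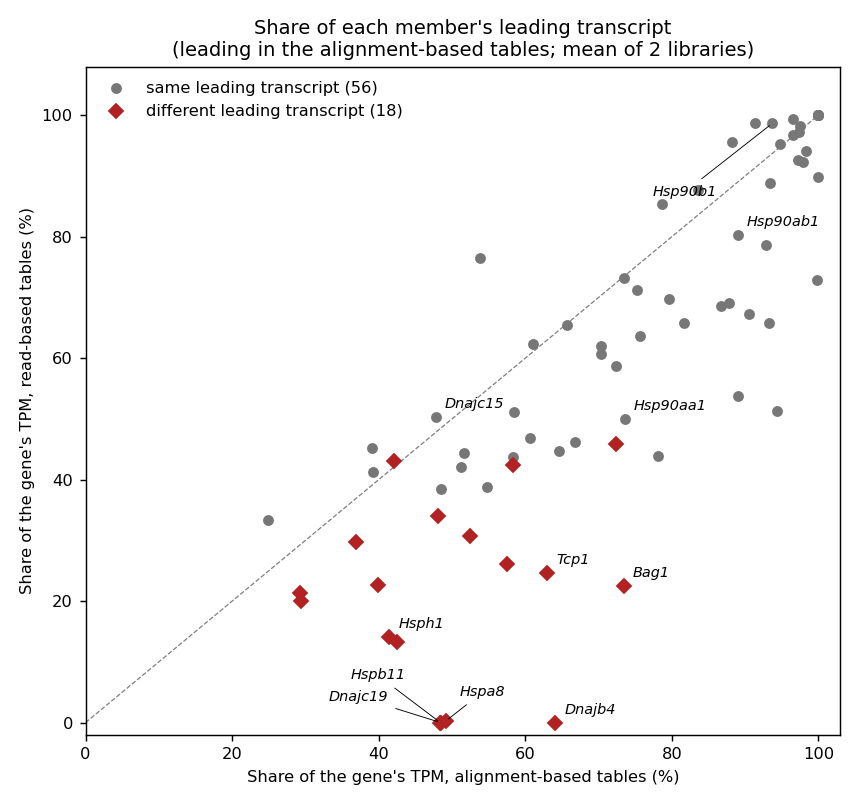
Share of the gene's TPM, in percent and as the mean of 2 libraries, held by the transcript that leads in the alignment-based tables (horizontal axis) against the share of that same transcript in the read-based tables (vertical axis), for 74 members. The 18 members whose leading transcript differs (diamonds) lie mostly below the diagonal, with Hspa8, Dnajb4, Dnajc19 and Hspb11 near 0 in the read-based tables.

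The largest gene of the family was among the 18. Hspa8-202, of 2019 bases, held 49.0% and 49.3% of Hspa8 in the alignment-based tables but 0.252% and 0.223% in the read-based ones, where Hspa8-201, of 2394 bases, held 75.8% and 82.6%. Dnajb4-202 held 64.1% in both alignment-based libraries against 0.00459% and 0.000169%. Bag1-201 held 67.5% and 79.5% against 18.6% and 26.3%. These differences between tables exceeded the differences between libraries, so the files do not settle which isoform these genes use. Tcp1-209 held 69.8% and 56.2% against 26.1% and 23.2%, Hsph1-211 41.7% and 41.2% against 12.5% and 15.6%, and Dnajc6-203 41.3% and 43.7% against 10.4% and 16.3%. Closer calls were Dnajc5-201 at 37.6% and 36.1% against 29.8% and 29.6%, Dnaja1-201 at 39.8% and 39.9% against 22.2% and 23.2%, and Bag5-201 at 75.5% and 69.2% against 48.5% and 43.3%. Dnajb2-210 and Dnajc13-201 led by mean level with under 30% of their gene each, 29.5% and 29.0% against 21.7% and 21.1%, and 29.8% and 29.1% against 19.7% and 20.4%. In replicate 2 of the alignment-based tables Dnajb2-207 led instead, with 41.6%, against 11.5% in replicate 1. Dnajc11-201 held 60.7% and 54.4% against 25.2% and 27.1%.

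In several of the 18 the leading transcript of 1 kind of table was noncoding or nearly missing from the other. Hspb11-202 held 51.9% and 44.9% but 0 to the precision of the read-based tables, where Hspb11-201 led. The retained-intron form Dnajc19-205 held 62.2% and 34.8% in the alignment-based libraries and was listed at 0 in the read-based ones. Dnajc24-202 and Hspb6-202, both processed transcripts, held 42.3% and 54.0% against 44.2% and 23.8%, and 44.0% and 60.9% against 31.5% and 29.97%. In Cct7 the nonsense-mediated decay form Cct7-202 held 43.4% and 40.9% in the alignment-based tables. Dnajc15, a mitochondrial J protein, was the only member led by a noncoding transcript in both kinds: the 419-base Dnajc15-203 held 51.1% and 44.5% in the alignment-based and 54.7% and 45.9% in the read-based tables. The retained-intron form Dnaja2-202 led in the read-based tables alone, at 58.0% and 57.1%. Noncoding forms held over 30% of the gene in both kinds for 13 members. TPM per gene sums these forms, so it is not a level of coding RNA alone.

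Copies elsewhere in the genome limited other members as well. Of the 74, 37 share no 31-base word with another gene's transcripts, 20 share more than 10% and 7 more than 50%. Besides Hspa8 and the Hspa1 pair these 7 are Hsp90aa1 (70.8%), Hspb1 (61.7%), Hspd1 (55.8%) and Dnajc19 (54.2%). The copies took few reads in most cases: Gm12346, the main copy of Hsp90aa1, had 390 and 332 counts, or 1.70% and 1.45% of both genes' counts. Gm15542, a copy of Dnaja1, had 479 and 367 counts, which was 8.63% and 6.70%. Hspe1 shares 48.1%, and its copy AC117239.2 had 80.7 and 71.5 counts, 13.9% and 11.7% of both. In the read-based tables AC117239.2 had only 9.09 and 12.3 counts. Gm45902 overlaps Hspa14 on the same strand and had 28.0% and 27.9% of the counts of both. The split of reads in these pairs is uncertain in the same way as for Hspa8.

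The read-based tables gave higher TPM throughout, and TPM in each kind is a share of that table's own total. Their ratio had a median of 1.64 over the 74 members and 1.59 over 13126 protein-coding genes at 1 TPM or more. Cct3 was lowest at 1.04 and Dnajc11 highest at 2.62. Hsp90aa1 stood at 2.39 and Hspa8 at 1.31, which moved the former past Hsp90ab1 and brought it nearer to the latter. Chaperone levels in TPM should therefore be compared only within 1 kind of table.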

How the data were processed

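Total RNA of 2 cortex samples (1 group) was sequenced, 1 library each. Per each library's deposited file list, the authors quantified on assembly mm10 with GENCODE M21. From alignments to the transcriptome they deposited expected counts and TPM for genes and transcripts. From the reads alone they deposited estimated counts and TPM for transcripts. Aligner and quantification tools: not given in the sources used here. The reference is that of C57BL/6J, so CAST/EiJ alleles were quantified against it, and the effect was not tested.

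The members, the gene lists and the named genes were chosen with earlier results of these data known. Named are, for each role group, the 4 members of highest mean TPM and the lowest 1, those with the largest ratios at a mean of 100 counts or more, those with a different leading transcript between tables, those with copies, and, for each companion list, the highest 3, the lowest and any with an interval wholly beyond 2-fold. Other companion genes, such as those whose interval excluded equality, were named after their values were seen.

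Expected counts were rounded and scaled in R 4.3.3 by TMM from edgeR 4.0.16 over the 18562 genes that averaged 10 counts or more. Replicate 2 had 1.01 times the size of replicate 1. Ratios were taken with 0.5 counts added, and their 95% intervals by the exact Clopper-Pearson method. Reads were not deduplicated by molecular identifiers, so intervals and floors describe counting error alone. The rule was tested on simulated data. The common coefficient of variation by edgeR was 4.08%. A gene's read-based value is the sum of its transcripts. Shared sequence was counted as 31-base words of the leading transcript found in transcripts of other genes, and promoters came from RefSeq (GRCm38.p6). Alternatives were DESeq2 1.42.0 size factors, spike-in scaling over 96 spike-ins, library totals, other filters, read-based tables and each library alone. With 1 group, no p-value was computed.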

Additional observations from a re-analysis of the deposited data

How the results depend on the processing

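Over 8 results, 41 alternatives were run, and 34 kept a count within 1.5 times or another value within its spread. Some of the 34 could not fail. With 2 libraries, each value lies within the SD of their mean, and rescaling TPM leaves the share of Hspa8 unchanged. The median log2 ratio was held against 0.102, a spread taken from the intervals of single genes and not that of a median. Among the 34, the 19 members excluding equality became 18 to 24, the 56 with the same leading transcript 44 to 58 (44 of 60 at 10 TPM or more), and the 20 with a heat shock element 17 without the bases after the start. The summed TPM of the members, 5377, was 8913 in the read-based tables, 11841 when TPM was rescaled to nuclear protein-coding genes, 4335 without Hspa8, and 5634 with Gm15459 added to Hspa8, an alternative chosen after seeing the data. It lay between 5205 and 5549 with 1 library left out. The share of Hspa8 in HSP70, 80.6%, was 77.5% in the read-based tables and 83.8% with Gm15459 added, and 80.1% to 81.2% with 1 library left out. Promoters with a heat shock element fell from 20 members to 4 with 3 units required, by construction a stricter search.

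The count of members beyond 2-fold was 0 under all 6 alternatives of scaling, filter and table, and 0 at 1.5-fold. Of the 10 members higher in replicate 2, 10 kept their side and interval with DESeq2 and with spike-ins, 7 with library totals and 9 in the read-based tables. Of the 9 lower, 9, 7, 9 and 7 did. Dnajc3, Dnajc11 and Dnajc24 included equality in the read-based tables, and Dnajc3, Hspa12a and Hspa4l with library totals. Hsp90b1 excluded equality with DESeq2 size factors (1.0007 to 1.07), with spike-ins (1.004 to 1.07) and in the read-based tables (1.01 to 1.08), and Hsp90aa1 with library totals (0.947 to 0.982) and in the read-based tables (0.963 to 0.998). No paired analysis was possible because there is only 1 group. The labels do not show that the libraries come from different animals, so the spread between animals was not estimated, and small ratios were measurable only in members with many counts.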
